A study of Homo sapiens with 10 samples.

Results

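The plasminogen activators PLAU and PLAT, the urokinase receptor PLAUR, 4 serpins (SERPINE2, SERPINB2, SERPINB5 and SERPINB8) and the annexin pair ANXA2 and S100A10 were followed in PC3 cells given the LXR agonist GW3965. These 9 genes were picked by name, and their rows were taken from a table of 62656 genes by matching the gene name column. PC3 is a human prostate cancer line derived from a bone metastasis, and the liver X receptors (LXR) are nuclear receptors that respond to oxysterols. The study asked which transcripts change when LXR is activated in these cells. Both groups were PC3 cells, for which the labels name no genetic change, starved overnight and then kept for 24 h in RPMI-1640 with L-Glu: 5 libraries received DMSO, the vehicle, and 5 received 1 µM of GW3965. The labels do not say whether the 5 libraries of a group came from separate cultures, so the p-values below measure the spread between these libraries, which may be technical.

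Urokinase (PLAU) and tissue plasminogen activator (PLAT) are serine proteases that cut plasminogen into plasmin, the protease that dissolves fibrin and helps to open the extracellular matrix. PLAUR holds urokinase at the cell surface, while the heterotetramer of annexin A2 (ANXA2) and S100A10 binds plasminogen and tissue plasminogen activator there. Serpins are suicide inhibitors of proteases, and among them SERPINE2 (protease nexin 1) and SERPINB2 (plasminogen activator inhibitor 2) act on the activators. SERPINB5 (maspin) is a clade B serpin that does not inhibit proteases in the usual way and has been studied as a suppressor of invasion in epithelial tumours. SERPINB8 inhibits furin-like proteases. PC3 is known as a line with high urokinase activity.

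Of the 9 genes, SERPINB5 alone passed the test, with 1.29-fold more transcript in the GW3965 libraries, and this call was lost in most of the alternative settings. Neither activator passed the test in any setting, nor did the receptor or the annexin pair. Among these S100A10 came nearest, with a limma adjusted p of 0.0533 in 1 alternative. SERPINE2 was higher by 0.29 on the log2 scale but did not pass the test after adjustment over all genes. The levels are deposited as RPKM, which are reads scaled by gene length and by library size, so that they can be set side by side between genes within the limits of the gene lengths used by the authors. Differences were tested with limma (two-sided) on log2(RPKM + 0.1). The 20402 genes whose mean reached 0.5 RPKM were tested, p-values were adjusted over all of them by Benjamini-Hochberg, and an adjusted p under 0.05 counted as a call. Fold changes are on that log2 scale. All 9 members passed this filter.

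The libraries held 30429384 to 41636379 reads, as recovered from the RPKM steps, of which 12% to 23.2% fell on the 7SL genes. The treatment check was as follows: the LXR target ABCA1 rose from 3.43 to 16.5 RPKM (log2 fold change 2.29 ± 0.20 SE, limma adjusted p = 0.000630), and ABCG1 and SREBF1 also passed the test, by 2.13 and 0.74 on the log2 scale. The epithelial keratins KRT8, KRT18 and KRT19 were at 36.8, 49.8 and 140.1 RPKM in the DMSO libraries and VIM was at 65.6 RPKM, whereas EPCAM was at only 1.57 RPKM and KLK3 was listed at 0 in all libraries. The 11 leukocyte, endothelial and fibroblast markers had group means of at most 1 RPKM. The 3 libraries DMSO 1, GW3965 1 and GW3965 2 sat together at one end of the first principal component (41.4% of the variance of 14372 genes), with scores of 17.72 to 19.70, while the next library was at 3.91 and DMSO 4 was at the other end, at -21.86. The fold change of each member without these 3 libraries is given beside its result.

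The bases below come from the stretch before the annotated start of a gene, and they are shown because SERPINB5 and SERPINE2 had the lowest p-values of the 9 genes and because ANXA2, SERPINB8 and PLAUR each hold an AP-1 motif there. S100A10, PLAU, SERPINB2, SERPINB5 and SERPINE2 hold no AP-1 motif in their windows, and PLAT had no window to search. The bases were read from RefSeq (GRCh38.p14) and run 5′ to 3′ on the strand of the gene. Capitals mark GGGCGG, the GC box bound by SP1 and KLF factors, in SERPINB5, where a pair of boxes overlaps. In SERPINE2 they mark AGGTCA, the core motif of nuclear receptors, and in ANXA2, SERPINB8 and PLAUR TGACTCA, the AP-1 motif, here read on the other strand.
SERPINB5, chr18:63476872-63476900, plus strand: gccgaggcgGGGCGGGGCGGggcgtggag
SERPINE2, chr2:224031552-224031581, minus strand: ttggctgatgctAGGTCAcgtggtcacatg
ANXA2, chr15:60398096-60398124, minus strand: gcgggccggggTGAGTCAcccctgacttg
SERPINB8, chr18:63970042-63970070, plus strand: tcgaacggttcTGAGTCAtctgccggaag
PLAUR, chr19:43670338-43670366, minus strand: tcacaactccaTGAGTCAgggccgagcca

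The GC boxes of SERPINB5 end 66 bases before its RefSeq start and the receptor motif of SERPINE2 ends 85 bases before one of its 2 starts. The AP-1 motifs end 120 bases before the start in ANXA2, 21 bases in SERPINB8 and 179 bases in PLAUR. In GENCODE 29 the stretches of SERPINB5, SERPINB8 and PLAUR lie in an exon of another transcript of the same gene, and those of SERPINE2 and ANXA2 lie in no exon of the gene. RefSeq windows of 250 bases before the start were matched for 8 of the 9 members, and both strands of 35116 such windows were searched. The AP-1 motif was in 4.2% of all windows and the GC box in 42.6%, the latter also before S100A10, PLAU, ANXA2 and SERPINE2. The receptor motif was in 12.1% of windows, SERPINB2 included. The full LXR element, known as DR4, which repeats that motif with a spacer and so overlaps it, was in 0.0142% of windows and in none of the members'. A match in such a window is a description of its letters and says nothing of binding in these cells.

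PLAU (ENSG00000122861, chromosome 10, 73909177 to 73917497, plus strand of GRCh38 in GENCODE 29) encodes urokinase and was expressed above 96.6% of tested genes. It was at 41.5, 76.0, 81.1, 62.9 and 55.2 RPKM in DMSO libraries 1 to 5 and at 48.3, 47.9, 68.1, 66.9 and 85.6 RPKM in GW3965 libraries 1 to 5. The groups overlapped almost entirely, and the range within either group was wider than for most of the other members. The means were 63.3 ± 16 (SD, n = 5) and 63.4 ± 15.8 RPKM, with a log2 fold change of 0.00 (SE 0.21, 95% confidence interval -0.45 to 0.46, limma adjusted p = 0.998). Both groups had their lowest values in the 3 libraries that stood together, and without them the log2 fold change was 0.10 (limma adjusted p = 0.883). Between 4222 and 9497 reads per library lay behind these values, so counting error was small beside the spread. The gene C10orf55 lies on the other strand and shares 916 exon bases with PLAU, and 20.7% of the 50-base windows of PLAU transcripts also occur in it. It was at 1.25 ± 0.231 and 1.17 ± 0.202 RPKM (76 to 139 reads), and whether the authors counted by strand is not given in the sources used here.

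PLAT (ENSG00000104368, chromosome 8, 42175233 to 42207724, minus strand) encodes tissue plasminogen activator. It was at 31.0, 37.2, 37.7, 44.6 and 37.0 RPKM in the DMSO libraries and at 31.1, 31.1, 41.5, 42.0 and 36.6 RPKM with GW3965. Its lowest values in both groups were in the 3 libraries that stood together on the first component. The means of 37.5 ± 4.81 and 36.5 ± 5.32 RPKM gave a log2 fold change of -0.04 (SE 0.11, 95% confidence interval -0.30 to 0.21, limma adjusted p = 0.977). Without those 3 libraries the log2 fold change was 0.03, so the data give PLAT no direction.

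PLAUR (ENSG00000011422, chromosome 19, 43646095 to 43670547, minus strand), the receptor, was far below its ligand. Its levels were 5.42, 5.75, 6.87, 6.05 and 4.97 RPKM in DMSO and 4.65, 4.36, 5.90, 5.79 and 5.70 RPKM in GW3965. GW3965 libraries 1 and 2 were the lowest of the 10, and every GW3965 value was below the highest DMSO value. The log2 fold change was -0.14 (SE 0.11, 95% confidence interval -0.38 to 0.10, limma adjusted p = 0.875). It was -0.02 without the 3 libraries that stood together. The ratio of PLAU to PLAUR was 7.65 to 13.2 in DMSO, with a median of 11.1, and 10.4 to 15 with GW3965, with a median of 11.5, so that the ligand stayed above the receptor in all 10 libraries. None of the 50-base windows of PLAUR transcripts occurs in another gene.

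**Figure D1:**
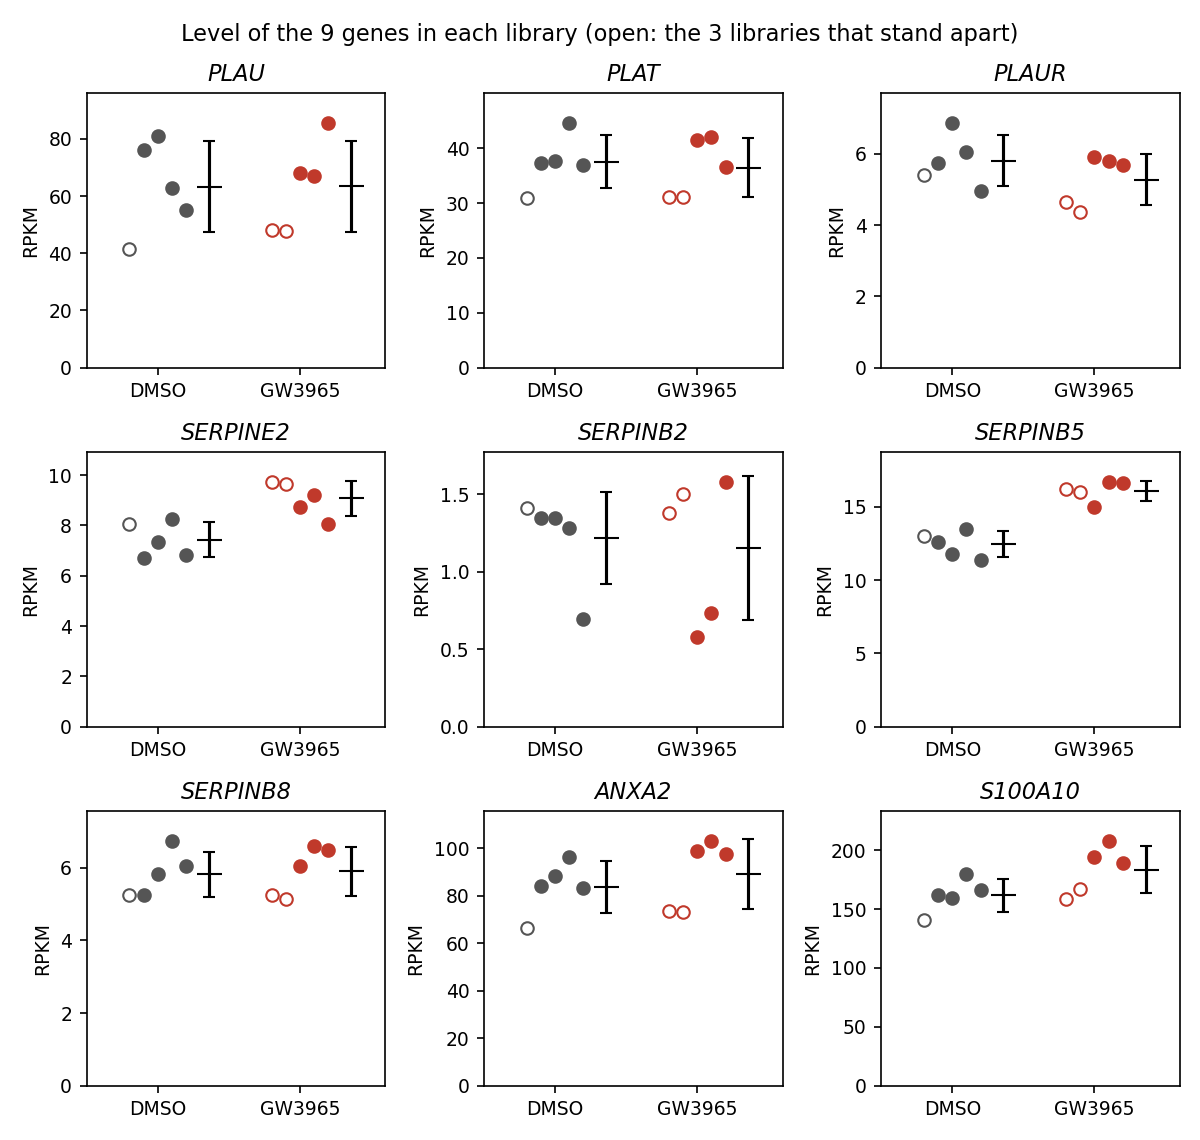
RPKM of the 9 genes (vertical axes, each from 0) in the 5 DMSO (grey) and 5 GW3965 (red) libraries; points are libraries, open points are DMSO 1, GW3965 1 and GW3965 2, and bars are the mean ± SD. The groups are apart for SERPINB5, at 11.4 to 13.5 against 15 to 16.7 RPKM, and overlap for the other 8 genes.

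SERPINB5 (ENSG00000206075, chromosome 18, 63476761 to 63505085, plus strand), or maspin, was at 13, 12.6, 11.8, 13.5 and 11.4 RPKM in the DMSO libraries and at 16.2, 16, 15, 16.7 and 16.6 RPKM with GW3965. All 5 GW3965 libraries were above all 5 DMSO libraries, and the spread within each group was small, with coefficients of variation of 6.98% and 4.22%. The means were 12.5 ± 0.871 and 16.1 ± 0.679 RPKM, a log2 fold change of 0.37 (SE 0.06, 95% confidence interval 0.24 to 0.50, adjusted p = 0.0486 by limma with Benjamini-Hochberg adjustment, unadjusted 7.53e-05). The exact permutation test of the difference in means gave p = 0.00794, two-sided, the smallest that 5 against 5 allow. Each library held 1340 to 2393 reads of the gene, and 0.534% of its 50-base windows occur in other genes. Across all tested genes 0.147% were called higher and 0.00980% lower, and 1.35% were higher and 0.490% lower with groups that do not overlap. Against this background 1 of the 9 members was called higher and none lower by limma or by voom on the recovered reads. At an unadjusted p under 0.05, 2 members (SERPINB5 and SERPINE2) and 6.99% of all tested genes passed, the former both higher.

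The size of the SERPINB5 difference hardly depended on the setting, but its call did. Over 22 alternatives the log2 fold change stayed between 0.34 and 0.50, and the adjusted p was under 0.05 in 7 of them. The call was lost when any 1 library other than DMSO 4 was left out (adjusted p 0.0710 to 0.154), and it held without DMSO 4 (limma adjusted p = 0.0310). It was also lost when DMSO 1, GW3965 1 and GW3965 2 were left out together, with a log2 fold change of 0.38 (limma adjusted p = 0.171), and with the first component as a covariate it was 0.37 (limma adjusted p = 0.0210). The correlation of SERPINB5 with the first component over the 10 libraries, with the group difference left in, was 0.03, as a description.

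**Figure D2:**
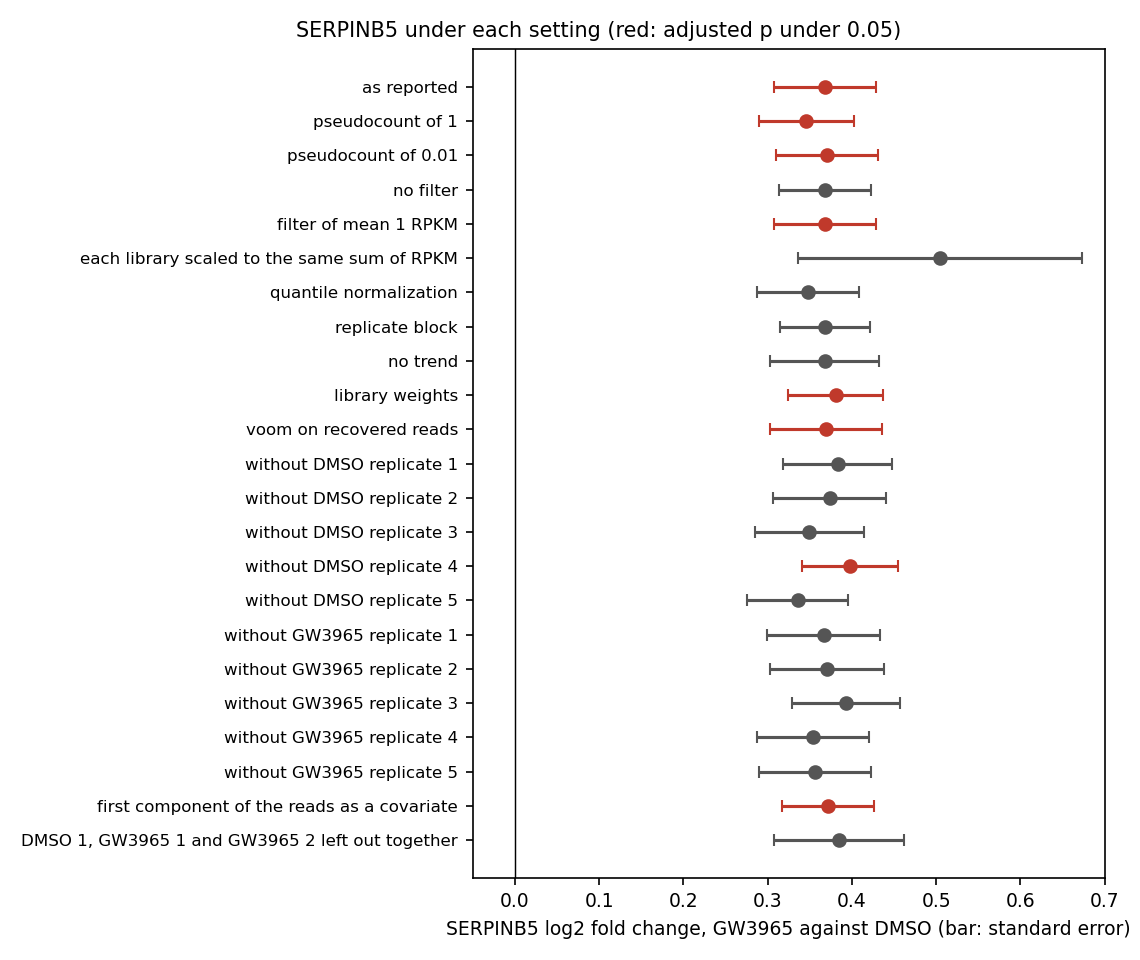
Log2 fold change of SERPINB5, GW3965 against DMSO (horizontal axis, bars are the standard error), as reported and under 22 alternatives (vertical axis); red marks an adjusted p under 0.05. All values lie between 0.34 and 0.50, while the call was kept in 7 alternatives.

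SERPINE2 (ENSG00000135919, chromosome 2, 223975112 to 224039319, minus strand), an inhibitor of thrombin, urokinase and tissue plasminogen activator, was at 8.04, 6.69, 7.34, 8.26 and 6.82 RPKM in DMSO and at 9.73, 9.65, 8.75, 9.20 and 8.07 RPKM with GW3965. Of the 5 GW3965 libraries 4 were above every DMSO library, and GW3965 5 was below DMSO 4. The means were 7.43 ± 0.702 and 9.08 ± 0.687 RPKM, with a log2 fold change of 0.29 (SE 0.08, 95% confidence interval 0.12 to 0.46). Its unadjusted value in limma was 0.00362. The adjusted p was 0.304 by limma and 0.122 to 0.868 over the alternatives, so the gene was called in none of them, and the direction was higher in each. The exact permutation test gave p = 0.0159, two-sided, for this gene alone. SERPINE2 stood at 0.0881 to 0.194 of the level of PLAU in DMSO (median 0.124) and at 0.0942 to 0.202 in GW3965 (median 0.138). These ratios overlapped between the groups. Without the 3 libraries that stood together the log2 fold change was 0.25 (limma adjusted p = 0.395).

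SERPINB2 (ENSG00000197632, chromosome 18, 63871692 to 63903890, plus strand), plasminogen activator inhibitor 2, was the lowest of the 9 members, with 60 to 164 reads per library. It was at 1.41, 1.35, 1.35, 1.28 and 0.698 RPKM in DMSO and at 1.38, 1.5, 0.578, 0.732 and 1.58 RPKM with GW3965. One DMSO library and a pair of GW3965 libraries were low, and the groups overlapped. The log2 fold change was -0.13 (SE 0.28, 95% confidence interval -0.75 to 0.50, limma adjusted p = 0.969), an interval that allows changes in either direction larger than the one of SERPINB5. Without the 3 libraries that stood together it was -0.33 (limma adjusted p = 0.825). Of its 50-base windows 18.2% also occur in SERPINB10, a neighbour on the same strand with at most 8 reads in any library.

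SERPINB8 (ENSG00000166401, chromosome 18, 63969925 to 64019779, plus strand) was at 5.25, 5.25, 5.83, 6.74 and 6.05 RPKM in DMSO and at 5.25, 5.14, 6.04, 6.60 and 6.48 RPKM with GW3965. The groups overlapped throughout, and the log2 fold change was 0.02 (SE 0.10, 95% confidence interval -0.19 to 0.23, limma adjusted p = 0.988). Without the 3 libraries that stood together it was 0.10 (limma adjusted p = 0.793). The gene shares 370 exon bases with HMSD on the same strand and 257 with AC009802.1 on the other strand, both of which had at most 52 reads in a library, against 1018 to 1479 for SERPINB8.

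SERPINB5, SERPINB2 and SERPINB8 belong to a cluster of 10 clade B serpin genes on chromosome 18 that spans 543 kb. Only 4 of the 10 passed the filter: these 3 members and SERPINB7, a serpin of squamous epithelia, which was at 27.5 ± 3.96 RPKM in DMSO and 24.2 ± 2.70 RPKM in GW3965 (log2 fold change -0.18, limma adjusted p = 0.816). SERPINB3, SERPINB4, SERPINB10, SERPINB11, SERPINB12 and SERPINB13 had group means of at most 0.0554 RPKM. In this cluster SERPINB5 was thus called higher, while its neighbours SERPINB7, SERPINB2 and SERPINB8 had fold changes of -0.18, -0.13 and 0.02 on the log2 scale and were not called; the differences between these fold changes were not tested.

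**Figure D3:**
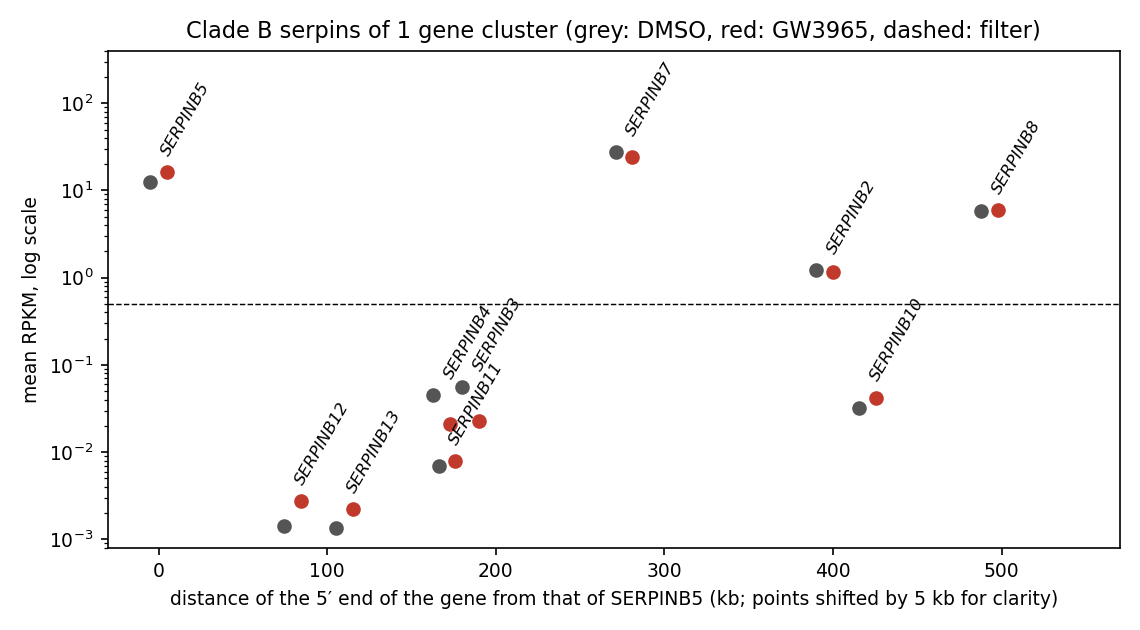
Mean RPKM (vertical axis, log scale) of the 10 clade B serpins of chromosome 18 in DMSO (grey) and GW3965 (red), against the distance of the 5′ end of each gene from that of SERPINB5 in kb; the dashed line is the filter of 0.5 RPKM. SERPINB5, SERPINB7, SERPINB2 and SERPINB8, 4 of the 10 genes, lie above the line.

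ANXA2 (ENSG00000182718, chromosome 15, 60347134 to 60402883, minus strand), the annexin that anchors plasminogen receptors at the membrane, was at 66.5, 83.9, 88.4, 96.4 and 83.1 RPKM in DMSO and at 73.3, 73.2, 98.6, 103 and 97.4 RPKM with GW3965. The 3 lowest values were in DMSO 1, GW3965 1 and GW3965 2. The means were 83.7 ± 10.9 and 89.1 ± 14.6 RPKM, with a log2 fold change of 0.08 (SE 0.13, 95% confidence interval -0.19 to 0.36, limma adjusted p = 0.955). Without those 3 libraries it was 0.18 (limma adjusted p = 0.410). With the first component as a covariate it was 0.13 (SE 0.04, limma adjusted p = 0.191).

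S100A10 (ENSG00000197747, chromosome 1, 151982915 to 151994390, minus strand), its S100 partner, was at 141, 162, 159.8, 179.6 and 166 RPKM in DMSO and at 159, 167, 194, 208 and 189.5 RPKM with GW3965. Of the GW3965 libraries 3 were above all DMSO libraries and the other two lay among them. The log2 fold change was 0.18 (SE 0.09, 95% confidence interval -0.02 to 0.37, limma adjusted p = 0.749), and with the first component as a covariate it was 0.20 (limma adjusted p = 0.0533). Without the 3 libraries that stood together it was 0.24 (limma adjusted p = 0.280). The ratio of ANXA2 to S100A10 within a library was 0.471 to 0.553 in DMSO and 0.439 to 0.514 with GW3965, so that the pair kept nearly the same proportion. The size of this ratio rests on the lengths that the authors used, 11574 bases for ANXA2 and 1012 bases for S100A10.

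The processed pseudogene ANXA2P2 was listed at 239 ± 32.0 and 259 ± 37.8 RPKM, above ANXA2 itself per length, and 5.91% of the 50-base windows of ANXA2 transcripts occur in it. ANXA2P1 was at 28.2 ± 3.67 and 30.5 ± 5.12 RPKM and ANXA2P3 at 3.79 ± 0.669 and 4.41 ± 0.8 RPKM. The log2 fold changes of these copies, 0.12, 0.11 and 0.21, were of the sign of the one of ANXA2 and none was called. Reads from a stretch that ANXA2 shares with a copy cannot be assigned with certainty, so the levels of ANXA2 and of its copies are uncertain. The 575 shared windows are a larger part of ANXA2P2, which is 1020 bases long, than of ANXA2.

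**Figure D4:**
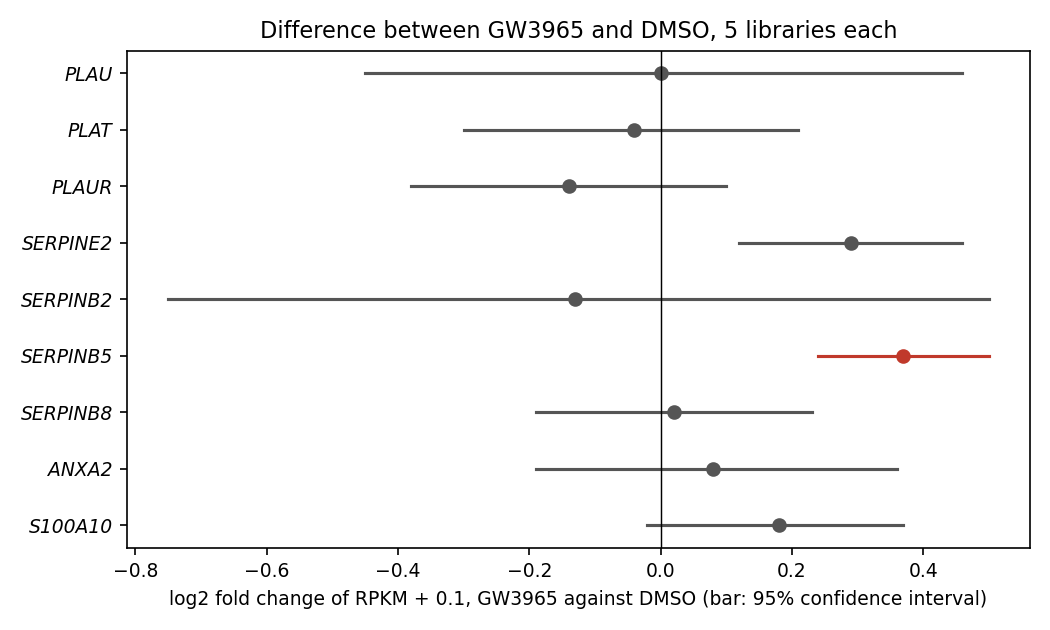
Log2 fold change of RPKM + 0.1 for each of the 9 genes, GW3965 against DMSO (horizontal axis), with its 95% confidence interval; red marks the gene past the threshold. The intervals of SERPINB5 (0.24 to 0.50) and SERPINE2 (0.12 to 0.46) lie above 0 and the other 7 include it.

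In order of their mean level per length, S100A10, ANXA2, PLAU and PLAT were followed by SERPINB5, SERPINE2, SERPINB8, PLAUR and SERPINB2. The ranges of ANXA2 and PLAU over the 10 libraries overlapped, as did those of PLAU and PLAT. Within each of the 10 libraries, however, ANXA2 was above PLAU and PLAU above PLAT. The neighbours SERPINB8 and PLAUR, at 5.82 and 5.81 RPKM in the DMSO libraries, could not be ordered there. In every GW3965 library SERPINB8 was above PLAUR, with means of 5.91 and 5.28 RPKM. The median log2 fold change of the 9 genes was 0.02, with 6 of 9 above 0, beside a median of 0.00 and 51.1% above 0 for all tested genes. When each library was scaled to the same sum of RPKM, the median of all genes moved to 0.14 and 8 of the 9 genes came out above 0, and with quantile normalization 5 did. Relative to the median of all genes, the median of the 9 was between 0.01 and 0.02 under these scalings.

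Many of the members went up and down together between libraries of the same group. The deviations of log2(RPKM + 0.1) from the group means, over 10 libraries, correlated with r = 0.96 for PLAT and ANXA2, for PLAT and S100A10, and for ANXA2 and S100A10, with r = 0.88 for SERPINB8 and ANXA2, with r = 0.81 for PLAU and ANXA2, with r = 0.78 for PLAU and PLAUR, and with r = 0.77 for PLAUR and ANXA2. SERPINE2 went against PLAU (r = -0.66), and SERPINB5 was unrelated to PLAT, ANXA2 and S100A10 (r = 0.07, 0.03 and 0.07). These are descriptions without a test, and the points share their libraries and depth. Levels of log2(RPKM + 0.1), with the group differences left in, were also set against the first component of 14372 genes. By this other measure the r was -0.96 for PLAT, -0.93 for ANXA2, -0.87 for SERPINB8, -0.76 for PLAU, -0.75 for PLAUR and -0.70 for S100A10. It was 0.31 for SERPINB2, 0.24 for SERPINE2 and 0.03 for SERPINB5. The component was built from these same libraries and holds 41.4% of the variance of those genes. The share of all genes with an r of this size was not worked out, so the values mark no trait of the members. The part of that component in these relations was not tested.

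**Figure D5:**
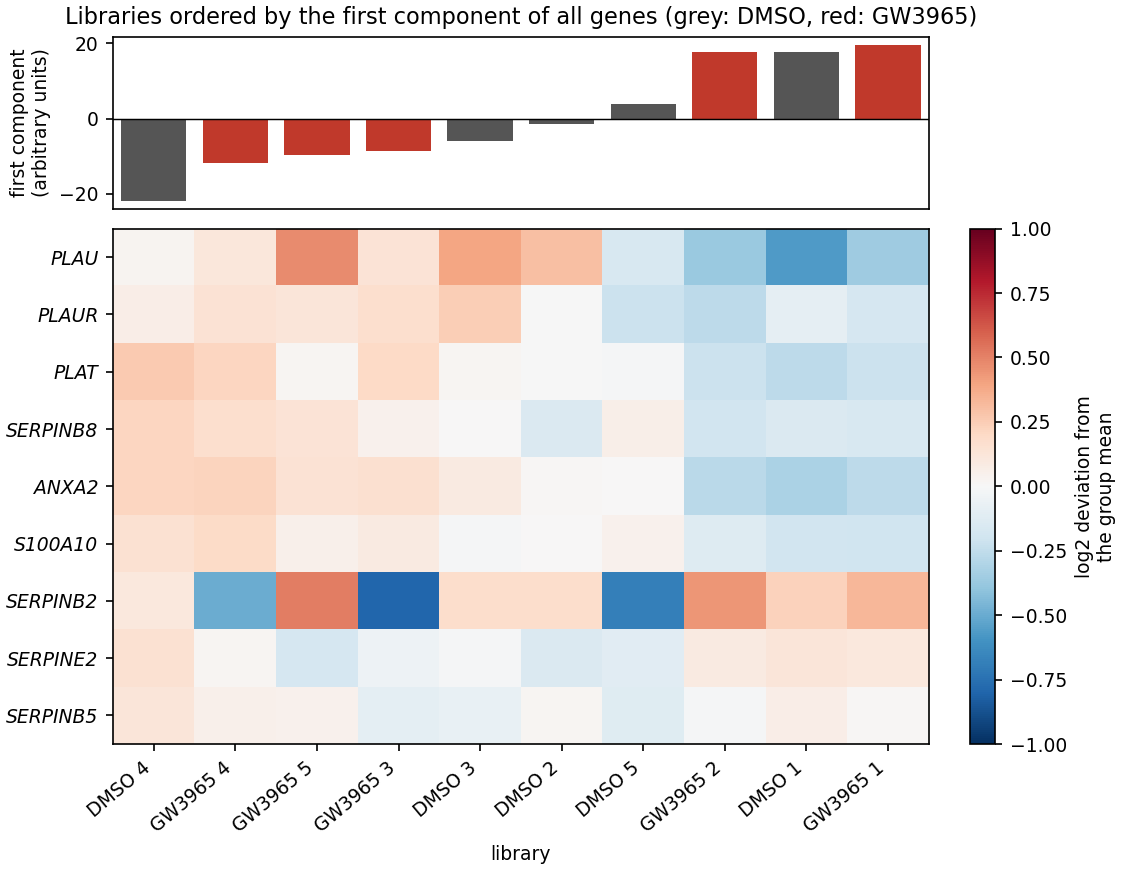
Upper panel: score of each library on the first component (14372 genes, arbitrary units), libraries in order of the score. Lower panel: log2 deviation of each gene from its group mean in the same libraries (colour). PLAU, PLAUR, PLAT, SERPINB8, ANXA2 and S100A10 are low in GW3965 2, DMSO 1 and GW3965 1 at the right, while SERPINB2, SERPINE2 and SERPINB5 do not follow that order.

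The genes most like each member by this measure were as follows. For PLAU they were CLDN11, IGFBP4 and AJUBA (r = 1.00 each after rounding), and for PLAUR they were AL132777.1, RPL10AP6 and PARP12 (r = 0.96, 0.95 and 0.95). For PLAT they were ACOT7, TUBB4B and U2AF2 and for ANXA2 JPT1, ACTN1 and RAN, with r of at least 0.99. For S100A10 they were AHSA1, RAB35 and SPINDOC and for SERPINB8 SF3A1, ZC3H4 and RTN4, with r of at least 0.98. SERPINE2 was most like ANXA10, LIMD1 and PSAP (r = 0.97, 0.97 and 0.96), SERPINB5 like EFCAB14P1, NUDT2 and SCARB2 (r = 0.96, 0.96 and 0.95), and SERPINB2 like STX16, RAB29 and PEX7 (r = 0.97, 0.95 and 0.95). With 10 libraries and 20402 genes, high values of r arise for any gene.

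Around the activators, plasminogen (PLG) was at only 0.0816 and 0.0967 RPKM (14 to 51 reads) and did not reach the filter. Of 8 genes for plasminogen, its other receptors and the plasmin inhibitors 3 were tested and none was called. ENO1, enolase 1, which also binds plasminogen at the cell surface, was at 306 ± 38.0 and 282 ± 34.4 RPKM (log2 fold change -0.12, limma adjusted p = 0.910). SERPINF2, the plasmin inhibitor, had the highest fold change of the 3, 0.24 (limma adjusted p = 0.926), at 0.456 and 0.558 RPKM. Its mean of 0.507 RPKM passed the filter of 0.5 RPKM only through the GW3965 libraries. It had 20 to 80 reads per library, so its place among the 3 carries little weight.

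All 13 partners and clearance receptors of the urokinase receptor were tested, and limma called none. An unadjusted limma p under 0.05 was found for 3 of the 13, beside 6.99% of all tested genes. Of the 13 genes 2 were higher with groups that do not overlap, beside 1.35% of all tested genes. DPP4, a cell surface peptidase that binds plasminogen, was at 2.04 ± 0.244 RPKM in DMSO and 3.19 ± 0.402 RPKM in GW3965, with no overlap (1.81 to 2.42 against 2.52 to 3.54). Its log2 fold change was 0.62 (SE 0.11, limma adjusted p = 0.0659), and voom on the recovered reads called it (adjusted p = 0.007). ITGA3, an integrin subunit that partners with PLAUR and is named here after its values were seen, was at 75.6 ± 5.88 and 93.4 ± 4.16 RPKM, also without overlap (log2 fold change 0.31, limma adjusted p = 0.128). ITGB1, the subunit with the highest level, was at 94.3 ± 8.86 and 101 ± 5.13 RPKM (log2 fold change 0.10, limma adjusted p = 0.870), and VTN, vitronectin, had the lowest fold change, -0.22 (limma adjusted p = 0.895). The median of the list was 0.02.

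Of 12 proteases reported to activate pro-urokinase or plasminogen and their Kunitz inhibitors 6 were tested and limma and voom called none. An unadjusted limma p under 0.05 was found for 2 of the 6, beside 6.99% of all tested genes. Of the 6 genes 1 was higher with groups that do not overlap, beside 1.35% of all tested genes. CTSL, cathepsin L, had the highest fold change, 0.21 (limma adjusted p = 0.606), and F12, coagulation factor XII, the lowest, -0.15 (limma adjusted p = 0.916). CTSB, cathepsin B, had the highest level, with 21.2 ± 1.72 and 22.0 ± 1.52 RPKM. SPINT2, a Kunitz inhibitor named after its values were seen, was at 4.86 to 5.71 RPKM in DMSO and 5.91 to 6.76 RPKM in GW3965, without overlap (log2 fold change 0.17, limma adjusted p = 0.567).

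Of the 10 other clade B serpins 3 were tested. SERPINB7 is described above, and SERPINB1 had the highest fold change among them, 0.05. Of 18 serpins of other clades 4 were tested. Among these SERPIND1, heparin cofactor II, was at 3.85 ± 0.552 and 4.09 ± 0.402 RPKM (log2 fold change 0.09, limma adjusted p = 0.935), SERPINI1 had the lowest fold change, -0.00, and SERPINH1, the collagen chaperone, the highest level, with 9.09 and 9.63 RPKM. None of these 7 tested serpins was called by limma or voom, and none had an unadjusted p under 0.05.

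Of 14 other annexins and S100 genes 13 were tested. None was called by limma or voom. An unadjusted limma p under 0.05 was found for 4 of the 13, beside 6.99% of all tested genes. Of the 13 fold changes 12 were above 0, beside 51.1% for all tested genes. Their median was 0.12 on the log2 scale beside 0.00 for all genes. ANXA1, annexin A1, had the highest, 0.42 (SE 0.15, limma adjusted p = 0.526), at 11.6 ± 2.34 and 15.5 ± 2.45 RPKM. S100A6 had the highest level, 921 ± 86.0 and 998 ± 41.8 RPKM, and S100A16 the lowest fold change, -0.05 (limma adjusted p = 0.957). Relative to the median of all genes, the median of the list was 0.12 as deposited, at the same sum of RPKM and with voom. Under quantile normalization 11 of the 13 were above 0 and the median fell to 0.05, or 0.06 relative to all genes. The shift of this list was thus smaller under that 1 scaling.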

How the data were processed

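Total RNA was depleted of ribosomal RNA and made into stranded libraries, 5 per group, sequenced as single reads of 50 bases; the labels name the molecule as polyA RNA. The authors deposited RPKM values; per the submitters' processing notes, bcl2fastq 2.20.0.422, cutadapt, HISAT2 2.1.0, HTSeq 0.11.2, DESeq2 1.22.2 and hg38 were used, while the methods name a mouse build; the gene identifiers are human. Strand use in counting is not given in the sources used here. The smallest steps of the RPKM values gave whole reads for 100.0% of the values above 0 (tolerance 0.01). Main test: limma 3.58.1 in R 4.3.3, lmFit and eBayes with trend, log2(RPKM + 0.1), mean of at least 0.5 RPKM, no covariate. It was tested on simulated data. Exact permutation tests used scipy 1.17.1. Gene places, exon overlaps and shared 50-base windows come from GENCODE 29.

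The 9 members, the lists and the tests were chosen with earlier results of these data known. Genes named outside the members were, for each list, those past the threshold, with the highest or lowest fold change, and with the highest level; near-identical copies and overlapping genes were all named. PLG, ITGA3, SPINT2 and the silent genes of the clade B cluster fall outside this rule and were named after their values were seen. Likeness was the Pearson r of deviations from group means, and the 3 highest genes are named. Same-numbered libraries were not taken as pairs, because the labels do not say that a number marks a shared batch. The correlations of their deviations were 0.15, -0.05, 0.04, 0.16 and -0.14. One gene withheld for evaluation is in none of the lists and is not reported here.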

Additional observations from a re-analysis of the deposited data

Results flagged for a closer look

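SERPINB2 in the DMSO libraries was set apart by 1 sample. DMSO 5 was at 0.698 RPKM, while the other 4 libraries lay between 1.28 and 1.41 RPKM, so that its gap to the nearest library was 0.868 of the range of the group, above the limit of 0.71 for 5 samples. Among the 18 groups looked at (9 genes, 2 groups) this was the only one, and chance gives about 0.9. The gene has 60 to 164 reads per library, and GW3965 3 and GW3965 4 were also low, at 0.578 and 0.732 RPKM.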

How the results depend on the processing

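SERPINE2, SERPINB5, PLAUR, ANXA2 and S100A10 kept their sign in all 22 alternatives. For PLAUR and ANXA2 this is no stable direction. PLAUR came to -0.0044 at the same sum of RPKM and ANXA2 to 0.0045 without DMSO 1. SERPINB5 lost its call with no filter (adjusted p 0.0851), each library scaled to the same sum (0.704), quantile normalization (0.0665), no trend (0.113) and the replicate block (0.132); no other member was called in any alternative. Signs turned for PLAT when libraries were scaled to the same sum (0.093), with library weights (0.032) and without DMSO 1, GW3965 1 and GW3965 2 (0.034), for SERPINB2 at the same sum (0.0051) and for PLAU with quantile normalization (-0.042). Leaving out 1 library gave log2 fold changes of -0.14 to 0.10 for PLAU, -0.11 to 0.020 for PLAT, -0.30 to 0.070 for SERPINB2 and -0.023 to 0.072 for SERPINB8. The cause was not tested. The count of called genes, 32, was 21 with no filter, 16 with the replicate block, 20 with no trend, 56 with library weights, 63 with voom on the recovered reads and 17 to 38 without 1 library. Added after the data were seen, the first component as a covariate gave 146 and the fit without the 3 libraries 18. The labels do not say whether a replicate number marks a shared batch. Over all tested genes 1 of 5 libraries correlated best with its own number, and whether the numbers mark pairs was not tested. With the replicate block the SE was lower for every member but SERPINB2, as for ANXA2 (0.127 to 0.069). For SERPINB2 the SE went from 0.284 to 0.300. The tests set for members under the filter were not run, because no member was under it.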
